A study of Homo sapiens with 4 samples.

Results

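The RAB small GTPases were followed in 2 RNA libraries of RKO cells, an established and poorly differentiated human colon carcinoma line. The members were all listed genes whose symbol is RAB, a number and at most 1 letter. By this rule 49 of the 13092 genes listed in either library were members, 47 of them with reads in the HADH-S library and 48 with reads in the control. A further 14 protein-coding RefSeq genes carry such a name and were listed in neither library, among them RAB17, RAB25, RAB27B and RAB31, so they were not evaluated. The 2 groups were RKO cells labelled HADH-S overexpression and RKO cells labelled WT, with 1 library each. HADH encodes a mitochondrial dehydrogenase of fatty acid oxidation, and HADH-S is described in the series title as a nuclear isoform. No label gives the vector, the time after its introduction or the number of clones. With 1 library per condition there was no replicate and no test, so each difference below describes these 2 libraries.

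RAB proteins are molecular switches that give each membrane of the cell its identity. An exchange factor loads a RAB with GTP on its target membrane, the GTP form recruits effectors such as tethers and motor adaptors, and a GTPase-activating protein turns it off. A C-terminal lipid anchor is attached by the RAB geranylgeranyl transferase with the help of an escort protein, and GDI extracts the GDP form back into the cytosol. In epithelial cells, different RABs direct secretory cargo from the endoplasmic reticulum (ER) through the Golgi, sort receptors through endosomes, and deliver proteins to the apical and basolateral surfaces.

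The HADH-S library held 6963608 assigned reads, the control 6773421. HADH had 651 and 309 reads, in the direction of the labels. Of 9 markers of colonic epithelium, EPCAM, KRT8, KRT18 and CDX2 were present, with summed RPKM of 111 against 106 over the list, while CDH1, KRT19, KRT20, CDX1 and VIL1 were listed in neither library. Of 5 leukocyte markers LCP1 alone was listed, at 222 against 249 RPKM, and no endothelial marker of 4 was listed. The 2 fibroblast markers of 5 that were listed, COL1A1 and LUM, stayed under 0.1 RPKM.

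The RAB complement differed little between the 2 libraries. RAB5A, RAB5C and RAB11B were higher with HADH-S by 1.31 to 1.43 times, RAB8B was lower by a ratio of 0.790, and the weakly expressed RAB4B had 6 reads against 27. Only 1 member, RAB8B, was lower beyond the spread of all genes, a count near the share over all genes given below. In bulk RNA, fewer cells with a transcript and less of it per cell cannot be told apart. Values are RPKM, the reads of a gene divided by its transcript length and by the library's read total. Averaged over the libraries, 40 of the 49 members reached 1 RPKM or more. Among these 40, 0 were higher by 2-fold on the scale log2(RPKM + 1), against 0.3% of all 10331 genes at this level. RAB4B alone was lower by 2-fold, 2.5% of the 40 against 0.0484% of all genes. RAB4B had been named in an earlier report of these data, so this share describes 1 gene with few reads and not the family. A limit of 1.5-fold gave the same counts, 0 higher and RAB4B lower, where 1.47% of all genes were higher and 0.436% lower. The median log2 value of the 40 was 0.02, beside 0.01 over all genes, and the middle of their distribution, from -0.11 to 0.14 between quartiles, equalled that of all genes to 2 decimals. Together the 49 members took 22935 and 21618 reads, a ratio per assigned read of 1.03 with a 95% counting interval of 1.01 to 1.05.

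A counting interval is the exact interval of a ratio given the reads behind it, and it covers counting error only. It lay above 1 for 8 of the 40 members, 20% against 13.8% of all genes, and below 1 for 3, 7.5% against 11.6% of all genes. Such shares depend on depth, and the 40 had a median of 696.5 reads over both libraries beside 570 for all genes. The 8 were RAB5A, RAB5C, RAB11B, RAB35, RAB29, RAB9A, RAB26 and RAB1B, and the 3 were RAB4B, RAB8B and RAB11A. Over all genes with at least 50 reads, the spread of log ratios was 1.74 times that of counting error. After the intervals were widened by this factor, 3 of the 40 members, RAB5A, RAB5C and RAB11B, stayed above 1, where 3.45% of all genes did. RAB8B stayed below, where 2.65% of all genes did, and 1 of the 40 is near that share. RAB4B did not, with a widened interval of 0.0327 to 1.04. It had fewer than those 50 reads, so the factor was applied to it from outside the genes that set it. Intervals of summed reads, over all members or over a compartment, were not widened. No background of gene groups of like size was computed.

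**Figure D1:**
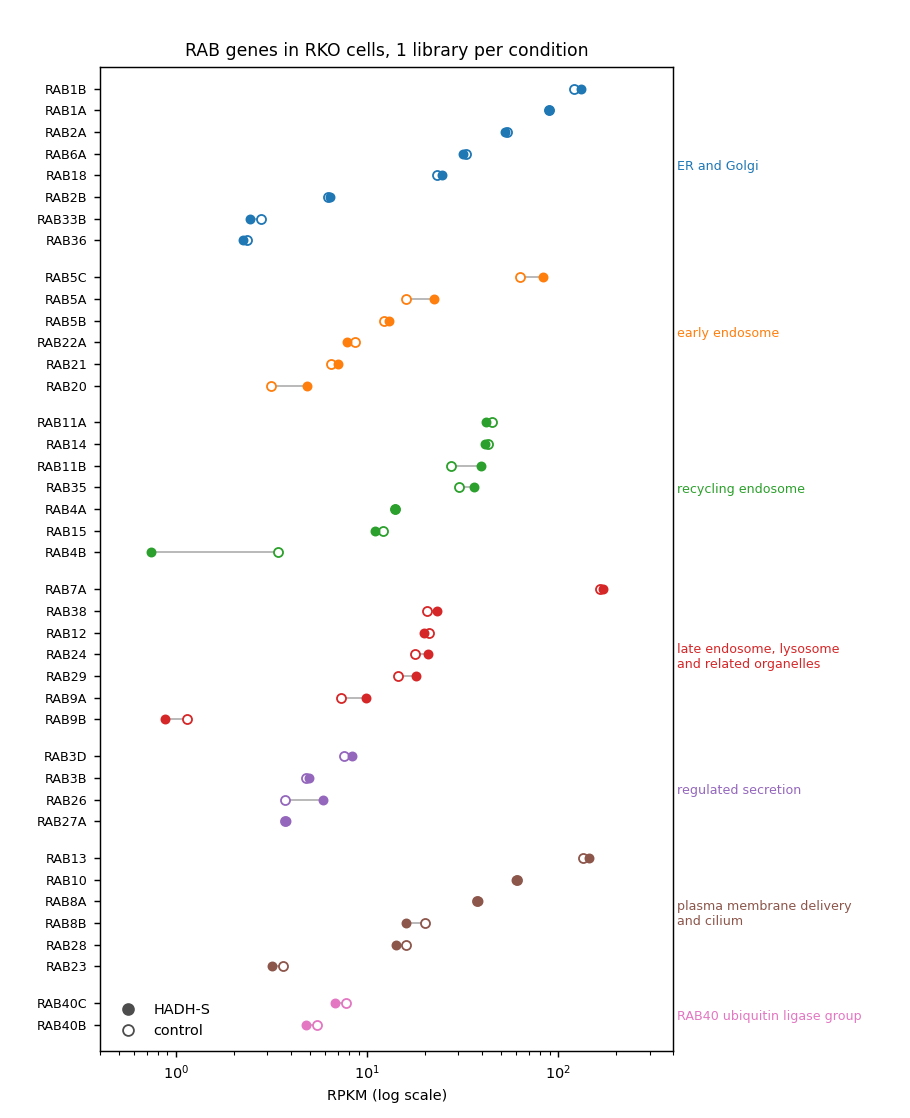
RPKM on a log axis of the 40 RAB genes with a mean of at least 1, grouped by main membrane compartment, with filled points for HADH-S and open points for the control (1 library each). Most pairs of points touch or lie close together, RAB7A is highest at 172 and 164 RPKM, and RAB4B shows the widest gap, 0.735 against 3.40 RPKM.

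Promoter windows from RefSeq (GRCh38.p14), 250 bases ending just before a start of the gene, were found for 38 of the 49 members. For 35 of them the window adjoins the outer bound of the gene, and for RAB10, RAB13 and RAB43 it does not. Those of RAB4A and RAB4B are shown because these close paralogues differed most within a family, and those of RAB5A and RAB5C because both stood above the control. Capitals mark matches, on either strand, to the E-box palindrome CACGTG, the CCAAT box (CCAAT) and the GC box (GGGCGG). Sequences read 5′ to 3′ toward the gene.
RAB4A, chr1:229270861-229271110, + strand: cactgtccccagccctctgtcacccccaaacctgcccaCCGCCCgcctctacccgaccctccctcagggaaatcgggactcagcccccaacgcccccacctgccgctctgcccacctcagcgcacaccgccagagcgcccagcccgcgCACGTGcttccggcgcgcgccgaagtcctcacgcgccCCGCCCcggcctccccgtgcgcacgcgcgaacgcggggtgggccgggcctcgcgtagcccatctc
RAB4B, chr19:40777997-40778246, + strand: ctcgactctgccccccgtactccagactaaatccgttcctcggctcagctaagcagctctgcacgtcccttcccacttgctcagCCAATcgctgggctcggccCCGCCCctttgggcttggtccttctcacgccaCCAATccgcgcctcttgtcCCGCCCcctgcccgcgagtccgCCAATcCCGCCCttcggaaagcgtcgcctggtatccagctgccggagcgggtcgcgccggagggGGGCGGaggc
RAB5A, chr3:19946847-19947096, + strand: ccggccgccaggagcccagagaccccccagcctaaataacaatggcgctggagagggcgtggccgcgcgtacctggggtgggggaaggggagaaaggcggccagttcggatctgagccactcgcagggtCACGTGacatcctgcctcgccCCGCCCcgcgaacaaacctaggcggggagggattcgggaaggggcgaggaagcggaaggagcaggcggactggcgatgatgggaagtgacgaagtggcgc
RAB5C, chr17:42154990-42155239, - strand: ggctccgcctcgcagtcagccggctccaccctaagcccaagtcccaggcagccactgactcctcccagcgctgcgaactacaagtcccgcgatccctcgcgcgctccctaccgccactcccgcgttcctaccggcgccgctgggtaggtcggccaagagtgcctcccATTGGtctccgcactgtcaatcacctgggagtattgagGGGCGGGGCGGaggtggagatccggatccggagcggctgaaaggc

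RAB4B held 3 CCAAT matches and RAB4A none, while RAB4A and RAB5A each held 1 CACGTG, which RAB4B and RAB5C lacked. The GC box was the letter pattern that most RAB windows shared. Among the 40 members at or above 1 RPKM, 29 of the 31 with a window (93.5%) held it, against 70.0% of 8422 such genes. The median GC content was 65.6% over the 38 windows beside 62.4% over 15843 protein-coding genes. These GC medians include genes under 1 RPKM, and no GC comparison among expressed genes alone was made. CACGTG was found in 4 of the 31 (12.9% against 9.39%), in RAB21, RAB24, RAB4A and RAB5A, and CCAAT in 10 (32.3% against 36.0%). The pattern GAAANNGAA, from the core of the interferon-stimulated response element, was found in RAB27A alone (3.23% against 5.46%). GC boxes overlap each other in RAB5C, and matches are letter patterns, not measured binding.

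RABs of the ER and Golgi were the most abundant group, and their differences were small. They summed to 343 against 333 RPKM, and their reads had a ratio of 1.02 (counting interval 0.985 to 1.06). RAB1B, which with RAB1A drives transport from the ER to the Golgi, was at 132 against 120.3 RPKM from 1746 and 1549 reads (ratio 1.10, interval 1.02 to 1.17). RAB1A, its close paralogue, was at 89.4 against 89.3 RPKM (ratio 1.00, interval 0.932 to 1.08). RAB1B was the single gene of the group whose interval excluded 1.

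RAB2A, which acts on tubular carriers between ER and Golgi, was at 52.7 against 54.0 RPKM, and RAB2B at 6.36 against 6.23. RAB6A, which moves vesicles within and out of the Golgi, was at 31.6 against 32.7 RPKM, and RAB18, found on the ER and lipid droplets, at 24.6 against 23.1. RAB33B and RAB36 were lower in abundance, at 2.43 against 2.77 and 2.25 against 2.35 RPKM. The log2 values of the 8 genes with a mean of at least 1 ran from -0.14 to 0.13. The other 5, RAB43, RAB30, RAB6B, RAB19 and RAB6D, stayed under 0.9 RPKM in both libraries. RAB43 shares sequence with the read-through gene ISY1-RAB43, which had 47 and 53 reads, so its 25 and 27 reads are uncertain.

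RABs of the early endosome had the highest read ratio of the 7 groups, although its interval overlapped those of the late endosome and regulated secretion groups below. These group intervals cover counting error only. Their reads numbered 2831 and 2429, a ratio of 1.13 (interval 1.07 to 1.20), and 5 of the 6 genes had a positive log2 value (52.2% of all genes did), with a median of 0.25. Early endosomal RABs took 12.3% of all RAB reads with HADH-S (exact binomial interval 11.9% to 12.8%) and 11.2% in the control (10.8% to 11.7%). Most of this lay in the RAB5 genes. RAB20, RAB21 and RAB22A together had a ratio of 1.03 (interval 0.950 to 1.11) from 1287 and 1218 reads.

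RAB5 is the master regulator of early endosome fusion and is encoded by 3 genes. RAB5C, on chromosome 17 from 42124979 to 42154989, was the most abundant, at 83.1 RPKM with HADH-S and 63.3 in the control from 675 and 500 reads. Its ratio was 1.31 (interval 1.17 to 1.48). RAB5A, on chromosome 3 from 19947097 to 19985175, was at 22.2 against 15.9 RPKM from 390 and 272 reads (ratio 1.39, interval 1.19 to 1.63). RAB5B was at 13.0 against 12.3 RPKM from 479 and 439 reads, with an interval of 0.930 to 1.21. Within the RAB5 reads the share of RAB5B was 31.0% with HADH-S (28.7% to 33.4%) and 36.3% in the control (33.5% to 39.0%). These intervals narrowly missed each other, but they cover counting error only and were not widened by the spread of all genes. The RAB5 genes together summed to 118 against 91.5 RPKM.

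RAB20, linked to phagosomes and endosome maturation, had the largest ratio of the other early endosomal genes, 1.55, but from only 51 and 32 reads, and its interval of 0.977 to 2.49 included 1. RAB21, which accompanies integrin traffic, was at 7.06 against 6.48 RPKM. RAB22A, which acts between early and recycling endosomes, was at 7.82 against 8.58 RPKM (interval 0.802 to 1.03) and was the single early endosomal gene with a negative log2 value.

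RABs of the recycling endosome had counting intervals on both sides of 1 while their sum stayed level. The 7 genes had 4334 and 4161 reads, a ratio of 1.01 (interval 0.971 to 1.06), yet 2 intervals lay above 1 and 2 below. Each is 28.6% of the 7, beside 13.8% above and 11.6% below over all genes. After widening by the spread of all genes, RAB11B alone of this group kept an interval that excluded 1. RAB11A and RAB11B, the paralogues that define this compartment, lay on opposite sides. RAB11A did so only just, and not after the length trend described below was removed. RAB11B, on chromosome 19 from 8390360 to 8404434, was at 39.3 RPKM with HADH-S and 27.5 in the control from 435 and 296 reads (ratio 1.43, interval 1.23 to 1.66). RAB11A, on chromosome 15 from 65869491 to 65891989, was at 41.8 against 45.1 RPKM from 1424 and 1494 reads (ratio 0.927, interval 0.862 to 0.998). The RAB11B share of RAB11 reads was 23.4% with HADH-S (21.5% to 25.4%) and 16.5% in the control (14.8% to 18.3%). By RPKM, RAB11B made up 48.5% of RAB11 RPKM with HADH-S and 37.9% in the control.

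RAB35, which returns cargo quickly from endosomes to the surface, was at 36.3 against 30.0 RPKM from 721 and 581 reads (ratio 1.21, interval 1.08 to 1.35). RAB14, between the trans-Golgi and endosomes, was at 41.6 against 42.9 RPKM, and RAB15, of endocytic recycling, at 11.0 against 12.2, both with intervals that included 1.

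RAB4 genes serve fast recycling from early endosomes. RAB4A was at 13.94 RPKM with HADH-S and 13.89 in the control from 290 and 281 reads (interval 0.849 to 1.19). RAB4B, on chromosome 19 from 40778247 to 40796942, was at 0.735 against 3.40 RPKM from 6 and 27 reads. This ratio of 0.216 had a counting interval of 0.0730 to 0.534 and a log2 value of -1.34, the lowest of all members. Per length, RAB4B made up 5.005% of RAB4 RPKM with HADH-S and 19.7% in the control. RefSeq places the read-through transcripts MIA-RAB4B and RAB4B-EGLN2 over the whole gene, and neither was listed. The downstream partner EGLN2 was at 24.2 against 21.4 RPKM, and the upstream partner MIA had 1 read against 0. No label or header says how reads of the read-through transcripts were assigned, so the RAB4B count is uncertain beyond its small size.

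**Figure D2:**
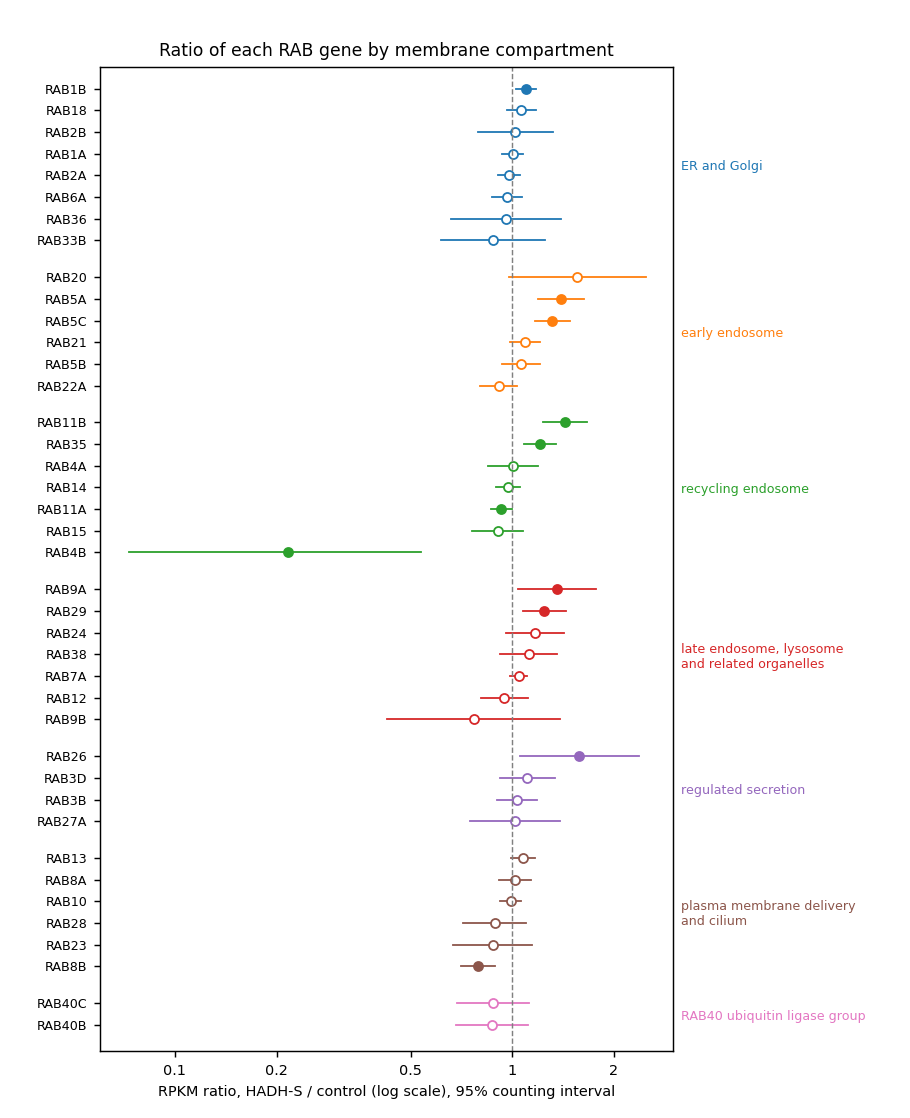
Ratio of RPKM, HADH-S over control, on a log axis for the same 40 genes by compartment, with 95% counting intervals (lines) and filled points where the interval excludes 1 (1 library per condition). RAB5A, RAB5C and RAB11B lie right of the dashed line of equal levels, RAB8B and RAB11A lie left of it, and RAB4B stands alone at 0.216.

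RABs of late endosomes, lysosomes and lysosome-related organelles had 3943 and 3583 reads and a ratio of 1.07. Its interval of 1.02 to 1.12 covers counting error only and was not widened by the spread of all genes. RAB7A, which governs fusion with lysosomes, was the most abundant member of the whole family, at 172 RPKM with HADH-S and 164 in the control from 2610 and 2433 reads. Its ratio was 1.04 (interval 0.987 to 1.10). Without RAB7A the ratio of the group was 1.13.

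RAB29, a RAB of the trans-Golgi and stressed lysosomes that recruits the kinase LRRK2, was at 18.0 against 14.5 RPKM from 414 and 324 reads (ratio 1.24, interval 1.07 to 1.44). RAB9A, which returns mannose 6-phosphate receptors from late endosomes to the Golgi, was at 9.81 against 7.26 RPKM from 139 and 100 reads (ratio 1.35, interval 1.04 to 1.77). Its paralogue RAB9B had 23 and 29 reads (interval 0.426 to 1.38). RAB24, linked to autophagosomes, was at 20.8 against 17.9 RPKM, RAB38, of melanosomes and related organelles, at 23.1 against 20.6, and RAB12 at 19.9 against 21.0. The intervals of these 3 genes included 1.

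RABs of regulated secretion were scarce, summing to 23.8 RPKM with HADH-S and 20.2 in the control (read ratio 1.09, interval 0.985 to 1.20). RAB3D, of secretory granules, was the most abundant at 8.37 against 7.56 RPKM, and RAB3B was at 4.93 against 4.77. RAB26, which links secretory granules and autophagy, was at 5.83 against 3.70 RPKM from 68 and 42 reads. Its ratio of 1.57 (interval 1.06 to 2.37) gave the highest log2 value of the 40 genes, 0.54. RAB27A, which docks secretory lysosomes and exosome-bearing endosomes, was at 3.78 against 3.71 RPKM (interval 0.750 to 1.38). RAB3A had 9 and 4 reads, RAB37 0 and 2, and RAB44 1 and 0, too few for a ratio to be read.

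RABs of delivery to the plasma membrane and the cilium had a ratio of 0.976 (interval 0.935 to 1.02) from 4144 and 4129 reads. RAB13, of tight junction traffic, was the second most abundant RAB gene, at 145 against 135 RPKM (interval 0.989 to 1.17). RAB10, of basolateral delivery, was at 59.8 against 60.4 RPKM. RAB8A, of apical and ciliary delivery, was at 37.9 against 37.3 RPKM (interval 0.911 to 1.13), whereas its paralogue RAB8B, on chromosome 15 from 63189606 to 63267776, was lower. RAB8B was at 15.9 against 20.1 RPKM from 532 and 655 reads (ratio 0.790, interval 0.703 to 0.887). Its share of RAB8 reads was 44.0% with HADH-S (41.1% to 46.8%) and 50.2% in the control (47.5% to 53.0%). RAB28 and RAB23, both tied to cilia, were at 14.2 against 16.0 and 3.18 against 3.64 RPKM, with intervals that included 1.

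The RAB40 proteins carry a SOCS box and act in ubiquitin ligases. RAB40C was at 6.76 against 7.71 RPKM and RAB40B at 4.76 against 5.48, ratios of 0.877 and 0.870 with intervals that included 1. RAB40A had 10 and 6 reads, and its near-identical copy RAB40AL had 1 and 0.

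**Figure D3:**
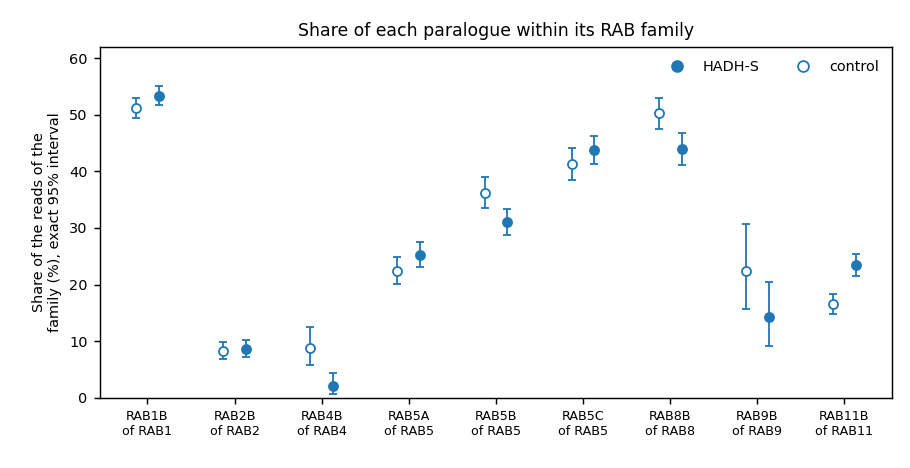
Share in percent of the reads of each RAB family taken by the named paralogue, with exact 95% binomial intervals, for HADH-S (filled) and control (open), 1 library each. The intervals of the 2 libraries stay apart for RAB4B, RAB5B, RAB8B and RAB11B, and overlap for RAB1B, RAB2B, RAB5A, RAB5C and RAB9B. These intervals cover counting error only and were not widened by the spread of all genes. The gap is narrow for RAB5B and RAB8B, and no such comparison was made over other gene families.

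The order of the most abundant members was shared by both libraries, while many lower ranks differed. RAB7A, RAB13, RAB1B, RAB1A, RAB5C, RAB10, RAB2A, RAB11A and RAB14 held the first 9 ranks by RPKM in the same order in each, although RAB11A and RAB14 were nearly equal with HADH-S, at 41.8 and 41.6 RPKM. The tenth was RAB11B with HADH-S and RAB8A in the control. The first 10 genes made up 69.0% of all RAB RPKM with HADH-S and 69.4% in the control. Reads that match several paralogues were divided by rules that no label or header gives, so the division within RAB1, RAB5, RAB6, RAB8, RAB11 and RAB40 is uncertain. Members whose gene bounds overlap those of another listed gene carry a like uncertainty. Examples are RAB23 with BAG2 (893 and 872 reads), RAB15 with CHURC1-FNTB (68 and 66) and RAB27A with PIGBOS1 (39 and 32).

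Of the 8 genes with an interval above 1, 5 were among the 13 members in the shortest of 3 equal length classes of all genes and 0 among the 9 in the longest class, which held RAB11A and RAB8B. The same leaning was present over all genes, where 16.9% of the shortest class and 9.99% of the longest had an interval above 1. The median log2 value was 0.15 for the 13 short members, -0.02 for the 18 in the middle and 0.04 for the 9 long ones, so it did not fall steadily with length. Over all genes the medians did fall steadily, from 0.05 in the shortest class to 0.02 in the middle and -0.04 in the longest. Across the 40 members Spearman's rho of length and log2 value was -0.39 and Pearson's r with log2 length was -0.11, or -0.45 without RAB4B. Across all 10331 genes they were -0.19 and -0.17, a description of points that share 2 libraries. RAB11B (1590 nt) is shorter than RAB11A (4895 nt), and RAB8A (2567 nt) than RAB8B (4800 nt), while RAB5C (1167 nt) and RAB4B (1173 nt), on opposite sides of 1, are among the shortest. After the median of genes of like length was subtracted, RAB1B and RAB11A no longer had an interval that excluded 1, RAB21 gained one above 1, and the other 9 kept theirs. The part of length in the differences was not otherwise tested.

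**Figure D4:**
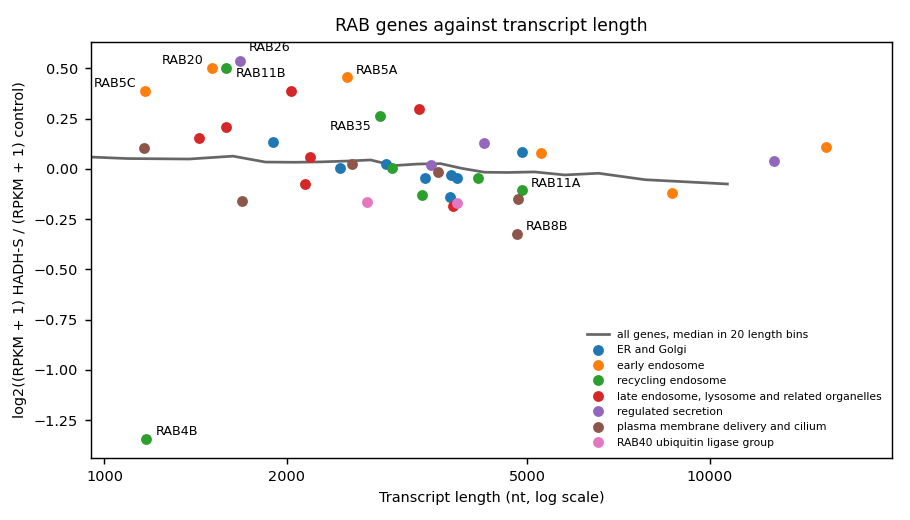
log2 value (HADH-S against control, RPKM + 1) of the 40 RAB genes against transcript length on a log axis, coloured by compartment, with the median of all genes in 20 length bins as a line. RAB5C, RAB11B and RAB26 are short and lie above the line, RAB8B and RAB11A are long and lie below it, and RAB4B, also short, lies at -1.34.

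The genes that run the RAB cycle differed little as groups. Of 159 such genes on 4 lists, 145 were listed in a library and 132 averaged 1 RPKM or more. Of the 132, 0 were higher and 1 was lower by 2-fold. The latter is 0.758%, against 0.0484% of all genes. Counting intervals exceeded 1 for 24 (18.2% against 13.8% of all genes) and fell short of it for 14 (10.6% against 11.6%), and the median log2 value was -0.01.

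In the lipid anchor and extraction group, 2 of 11 intervals lay above 1 and 1 below, 18.2% and 9.09% beside the 13.8% and 11.6% of all genes. RABAC1 (PRA1), which helps release RABs from GDI, was at 78.7 against 53.7 RPKM from 411 and 273 reads (ratio 1.46, interval 1.25 to 1.71). GDI2 was at 279.6 against 294 RPKM (ratio 0.952, interval 0.913 to 0.992). The escort protein genes CHM and CHML had ratios of 0.915 and 0.946, and the transferase subunits RABGGTA and RABGGTB had ratios of 1.25 and 1.04, all with intervals that included 1.

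Among exchange factors, 9 of 43 intervals lay above 1 and 5 below, 20.9% and 11.6% beside the 13.8% and 11.6% of all genes. The TRAPP subunit gene TRAPPC12 was at 13.7 against 9.69 RPKM (ratio 1.41, interval 1.15 to 1.73), ALS2CL, a relative of the RAB5 exchange factor alsin, at 2.13 against 1.35 (ratio 1.58, interval 1.07 to 2.34), and DENND5B at 1.34 against 1.996 (ratio 0.671, interval 0.437 to 1.02). Among GTPase-activating proteins, 5 of 35 lay above and 2 below, 14.3% and 5.71% beside 13.8% and 11.6%. EVI5, which acts on RAB11, was at 3.65 against 5.32 RPKM (ratio 0.686, interval 0.566 to 0.829). TBC1D10A had a ratio of 1.41 (1.05 to 1.88). TBC1D25, which acts on RAB33B in autophagy, was at 4.21 against 3.003 RPKM, also with an interval above 1.

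Among effectors, 8 of 43 intervals lay above 1 and 6 below, 18.6% and 13.95% beside the same 13.8% and 11.6%. REP15, an effector of RAB15, was at 1.12 against 3.72 RPKM from 9 and 29 reads (ratio 0.302, interval 0.126 to 0.655). It was the one regulator past the 2-fold rule, while RAB15 itself had a ratio of 0.906. PLEKHM1, a RAB7 effector in lysosome fusion, was at 9.13 against 5.52 RPKM from 333 and 196 reads (ratio 1.65, interval 1.38 to 1.98). SYTL4, a RAB27 effector of granule docking, was at 3.10 against 2.09 RPKM (ratio 1.49, interval 1.04 to 2.13).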

How the data were processed

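RNA was measured in 2 libraries, 1 per condition. RNA was extracted with Trizol and made into mRNA libraries, per the labels' protocols. The authors deposited 1 RPKM value per gene and library, per the file headers. Fastp 0.23.2, SAMtools 1.9, MACS2 1.4.2, ChIPseeker and GRCh38 are named for the whole series per the submitters' processing notes. No label or header names the RNA aligner, the counter, its strand setting or the annotation version (not given in the sources used here). The chromatin immunoprecipitation and its input were not analysed here.

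Each RPKM multiplied by its transcript length was a whole multiple of 1 step per library (100% of values within 0.01 reads), which gave reads per gene. A gene listed in 1 table was taken as having 0 reads in the other. Values are log2((RPKM + 1) HADH-S / (RPKM + 1) control), which understates differences of low genes. Ratios carry exact conditional (Clopper-Pearson) 95% intervals, computed with scipy 1.17.1, and shares exact binomial ones. Without molecular identifiers, reads are not independent molecules, so both cover counting error only. At the median member length, 3 reads correspond to 0.138 RPKM with HADH-S and 0.142 in the control. The steps were tested on simulated data with counting error only, which cannot show how the intervals cover the wider spread of these libraries.

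Each member was placed in 1 main compartment from general knowledge. The members, lists and rules were chosen with earlier results of these data known. Named with full values were members past the 2-fold rule or with an interval excluding 1, the most abundant of each compartment, paralogues on opposite sides of 1, and the 3 regulators per class with the largest log2 value, with GDI2 and the CHM and RABGGT genes; 1 gene that this rule names is not reported here. Other members are given by level or range. Alternatives covered the pseudocount, scaling, filters, and sums of RPKM. A minimum of 50 reads, removal of a length trend, widened intervals and omission of the RAB5 genes were added after the data were seen.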

Additional observations from a re-analysis of the deposited data

How the results depend on the processing

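No paired analysis was possible because each condition has 1 library, and for the same reason no library could be left out. Of 104 alternative values, 89 stayed within the limits of the reported one. For a count the limit was a change of at most 1.5-fold, and for a compartment ratio its counting interval. For the median it was -0.04 to 0.10, and for RAB4B a log2 value of -1 or lower. The 89 include counts of 0 members higher by 2-fold, which had little room to move. RAB4B was at -0.55 on the log2 scale with a pseudocount of 5, which left 0 members lower by 2-fold or 1.5-fold; a mean RPKM of at least 5 and a minimum of 50 reads also left 0 of each, since they remove RAB4B. The number of members higher by 1.5-fold went from 0 to 2 with a pseudocount of 0.1 and to 1 with 0.5. Widened intervals left 3 members above 1 and 1 below, against 8 and 3. The early endosome ratio was 1.26 by summed RPKM, which gives the short RAB5C more weight, and 1.03 without RAB5A, RAB5B and RAB5C. Without the member with the most reads, the recycling endosome ratio was 1.06 (without RAB11A) and the late endosome ratio 1.13 (without RAB7A). Rescaling the HADH-S library to the control shifted every ratio by 0.983 to 0.992 times and left 8 intervals above 1 and 3 below. The median over members became -0.00070 with equal RPKM totals and -0.01 without the length trend. Depth limits the members with few reads, such as RAB4B and RAB9B.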
